A study of Mus musculus with 2 samples.

Results

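The RUNX family holds 3 transcription factor genes, Runx1, Runx2 and Runx3, and is described here together with Cbfb, the gene of their shared partner. The 4 genes were chosen by name, out of 21853 protein-coding genes of the annotation, and open chromatin at each was described. Earlier results of these data were known when they were chosen. A DNase peak was counted at a promoter when its midpoint lay within 1000 bp of a protein-coding transcription start site (TSS) of the gene. Any other peak was called distal and was given to the gene with the nearest coding TSS, if that was within 100 kb. By this rule the 4 genes held 157 of 154812 peaks in replicate 1 and 147 of 139702 peaks in replicate 2, and 112 peaks were shared. Shared peaks are those of replicate 1 with at least 1 bp in common with one in replicate 2.

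DNase-seq maps where the enzyme DNase I cuts chromatin, and so shows open DNA at promoters and enhancers. Here it was run on whole thymus of healthy newborn mice (postnatal day 0) of strain B6NCrl, with male and female animals pooled. The study holds 1 group with 2 biological replicates, which carry the same donor label and different biosample labels. No genotype, allele or treatment is given for either, there is no second group, and nothing below is a test.

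RUNX proteins bind DNA through the runt domain, and CBFβ, the product of Cbfb, does not touch DNA itself but strengthens that binding. Runx1 is needed for the first blood stem cells and for early thymocytes, Runx3 for CD8 T cells and for silencing of Cd4, and Runx2 for bone formation. Each Runx gene is transcribed from a distal promoter, P1, and a proximal promoter, P2, which give proteins with different first residues. Cbfb is transcribed from a single promoter.

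The 3 P1 promoters differed in the RUNX binding words they carry, so the 250 bases before each P1 start site are printed here, from the GRCm38 (mm10) sequence, 5′ to 3′ on the strand of the gene. Capitals mark the RUNX words TGTGGT and TGCGGT, searched on both strands, so that ACCACA is TGTGGT on the other strand. Runx1 P1 lies at chr16:92826150-92826399 (minus strand), Runx2 P1 at chr17:44814798-44815047 (minus strand) and Runx3 P1 at chr4:135120402-135120651 (plus strand).

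Runx1 P1: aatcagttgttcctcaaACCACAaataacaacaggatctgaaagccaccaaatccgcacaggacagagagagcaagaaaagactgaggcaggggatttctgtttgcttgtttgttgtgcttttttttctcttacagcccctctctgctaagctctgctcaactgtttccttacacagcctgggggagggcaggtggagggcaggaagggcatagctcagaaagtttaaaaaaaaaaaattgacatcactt

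Runx2 P1: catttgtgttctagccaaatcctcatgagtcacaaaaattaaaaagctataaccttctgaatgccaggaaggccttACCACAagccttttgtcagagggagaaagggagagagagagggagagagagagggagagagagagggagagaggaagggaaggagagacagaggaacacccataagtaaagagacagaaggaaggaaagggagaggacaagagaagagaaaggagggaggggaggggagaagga

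Runx3 P1: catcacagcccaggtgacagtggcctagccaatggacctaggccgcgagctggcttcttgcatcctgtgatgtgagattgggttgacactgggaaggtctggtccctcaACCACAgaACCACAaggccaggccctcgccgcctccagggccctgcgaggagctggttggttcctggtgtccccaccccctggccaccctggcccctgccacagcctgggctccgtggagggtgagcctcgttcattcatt

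Runx1 P1 held 1 RUNX word, which began 233 bases before the start site, and Runx2 P1 held 1, at 174 bases. Runx3 P1 held 2 RUNX words, at 141 and 133 bases, with 2 bases between them. Neither the P2 promoters of the 3 genes nor the Cbfb promoter held a RUNX word in their 250 bases. Of 32526 coding promoters, 18.25% held at least 1 such word in a window of the same length and 1.99% held at least 2. A word is a match of letters and was not tested as a bound site.

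Runx3 P2, which lies at chr4:135152246-135152495, is printed for contrast with Runx3 P1. The P2 promoters are rich in CpG and held no RUNX word in the window searched before the start site. Outside this window, a shared peak at Runx1 P2 and an unshared peak at Runx2 P2 each held a RUNX word.

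Runx3 P2: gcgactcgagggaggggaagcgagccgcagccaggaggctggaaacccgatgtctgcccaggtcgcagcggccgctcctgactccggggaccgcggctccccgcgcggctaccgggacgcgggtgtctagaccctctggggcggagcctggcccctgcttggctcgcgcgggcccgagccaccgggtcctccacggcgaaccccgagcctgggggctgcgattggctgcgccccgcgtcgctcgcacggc

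Distal peaks from the strongest 5 of each gene, by the mean percentile rank of the deposited score over both replicates, are shown as the 150 bases of the replicate 1 peak. They are ranks 1 and 2 of Runx1 and of Runx2, rank 1 of Cbfb, and ranks 1, 3 and 5 of Runx3, of which the last 2 were picked for the RUNX and CTCF words they hold. They are read on the strand of the gene. Capitals mark any word of 6 families on either strand. The RUNX words are those above. The ETS words are CGGAAG and, with another first base, AGGAAG. The E-box words, bound by bHLH proteins, are CAGCTG and also CACCTG. The TCF/LEF family was searched as the single word CTTTGA. The GATA words are AGATAA and, likewise, TGATAA. The CTCF core was searched as CAGAGGGC, CAGATGGC, CAGGGGGC, CAGGTGGC, TAGAGGGC, TAGATGGC, TAGGGGGC and TAGGTGGC. An E-box CACCTG can overlap a CTCF word such as CAGGTGGC. Distances are in kb from the P1 start site along the direction of transcription, with a minus sign for upstream.

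Runx1, 84.6 kb, chr16:92741456-92741605: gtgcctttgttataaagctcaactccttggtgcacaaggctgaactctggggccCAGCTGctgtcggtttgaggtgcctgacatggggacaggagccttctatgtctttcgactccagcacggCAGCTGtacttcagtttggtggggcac

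Runx1, 24.4 kb, chr16:92801716-92801865: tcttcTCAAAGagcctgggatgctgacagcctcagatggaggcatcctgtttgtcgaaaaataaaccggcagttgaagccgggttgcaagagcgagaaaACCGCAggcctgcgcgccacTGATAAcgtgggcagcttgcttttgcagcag

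Runx2, 160.1 kb, chr17:44654636-44654785: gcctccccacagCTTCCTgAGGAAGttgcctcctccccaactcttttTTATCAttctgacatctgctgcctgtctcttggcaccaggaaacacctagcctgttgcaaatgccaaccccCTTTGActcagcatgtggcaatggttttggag

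Runx2, 124.2 kb, chr17:44690536-44690685: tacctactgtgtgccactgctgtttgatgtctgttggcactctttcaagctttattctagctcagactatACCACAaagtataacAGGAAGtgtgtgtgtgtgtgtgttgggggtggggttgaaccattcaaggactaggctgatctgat

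Runx3, 85.7 kb, chr4:135206316-135206465: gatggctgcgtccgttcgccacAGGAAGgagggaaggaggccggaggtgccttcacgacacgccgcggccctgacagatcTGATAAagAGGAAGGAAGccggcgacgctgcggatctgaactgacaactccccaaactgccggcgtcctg

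Runx3, -40.6 kb, chr4:135079956-135080105: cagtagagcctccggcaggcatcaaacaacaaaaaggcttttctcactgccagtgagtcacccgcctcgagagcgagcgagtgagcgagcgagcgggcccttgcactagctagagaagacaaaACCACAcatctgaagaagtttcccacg

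Runx3, -53.7 kb, chr4:135066856-135067005: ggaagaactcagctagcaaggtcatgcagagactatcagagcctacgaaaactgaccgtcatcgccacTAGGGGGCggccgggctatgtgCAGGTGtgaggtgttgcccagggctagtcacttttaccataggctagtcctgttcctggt

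Cbfb, -12.9 kb, chr8:105157676-105157825: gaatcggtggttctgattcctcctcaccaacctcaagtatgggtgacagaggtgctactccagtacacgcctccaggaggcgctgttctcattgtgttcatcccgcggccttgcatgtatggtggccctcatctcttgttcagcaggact

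At least 1 promoter was open in both replicates at all 4 genes, as at 61.7% of coding genes. Start sites of a gene within 1000 bp of each other were joined into 1 promoter, which gave 8 promoters for the 4 genes, and 7 of the 8 had a shared peak, against 47.3% of all 32526 coding promoters. The exception was P1 of Runx2. The score is a whole number from 1 to 150 that the authors gave each peak, and its meaning is not given in the sources used here. It serves to rank peaks within a replicate.

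Runx1 (ENSMUSG00000022952.17, chr16:92601466-92826149, minus strand) was open at both promoters. The strongest P1 peak was centred 42 bp upstream of the start site and scored 114 in replicate 1 and 118 in replicate 2. These were above 94.2% and 93.6% of the peaks of each list. The peak held no RUNX word, and the word printed above lay upstream of it. Another shared P1 peak in the first exon scored 65 and 77, and a weaker one in the intron scored 35 and 37. Around P2, which lies 128.8 kb downstream, 3 peaks stood side by side. The first scored 102 and 95, the next 102 and 112, and the last 102 and 103. The annotation holds another cluster of coding start sites just after P2, which is counted as a promoter of its own, and a shared peak beside it scored 62 and 69. So P1 and P2 of Runx1 were open at similar scores in both replicates.

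Runx2 (ENSMUSG00000039153.16, chr17:44495987-44814797, minus strand), the bone factor, was open at P2 but hardly at P1. No peak and no hotspot of replicate 1 lay within 1000 bp of P1. Replicate 2 had 1 peak there, at chr17:44814516-44814665 in the first exon, with a score of 23, above 16.6% of the peaks in its list. This peak held 3 RUNX words, and the hotspot over it was 266 bp wide with a −log10 q of 3.05. Hotspots are regions of raised cutting, and their deposited −log10 q is capped at 100. Their median width over all hotspots was 254 bp in replicate 1 and 266 bp in replicate 2. Some were narrower than a 150 bp peak, such as 1 of 52 bp at Runx1 in replicate 1. P2, 78.1 kb downstream, had 8 peaks in each replicate, of which 6 of replicate 1 were shared, and the strongest scored 105 and 103. The marker genes of bone and cartilage (Sp7, Bglap, Sox9, Acan, Col10a1) were open at the promoter in both replicates in 0 of 5 cases. Over all coding genes the share was 61.7%.

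Runx3 (ENSMUSG00000070691.10, chr4:135120652-135177990, plus strand), the CD8 lineage factor, was open at both promoters. At P1 a single peak, chr4:135120376-135120525, scored 120 and 118, above 95.8% and 93.6% of the peaks of each list. This peak contained the pair of RUNX words printed above. Its hotspot was 653 bp wide in replicate 1 and 630 bp in replicate 2. At P2, 31.8 kb downstream, a peak centred 5 bp from the start site scored 104 and 114, and a second one in the intron scored 64 and 86.

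Cbfb (ENSMUSG00000031885.14, chr8:105170674-105217989, plus strand) had 3 promoter peaks in each replicate, and all 3 were shared. They scored 118 and 132 just upstream of the start site, then 66 and 81, and 97 and 101. A single hotspot covered them, 1907 bp wide in replicate 1 and 2144 bp in replicate 2. The Cbfb peak at the start site had the highest score of any promoter peak of the 4 genes in replicate 2, and Runx3 P1 had it in replicate 1.

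**Figure D1:**
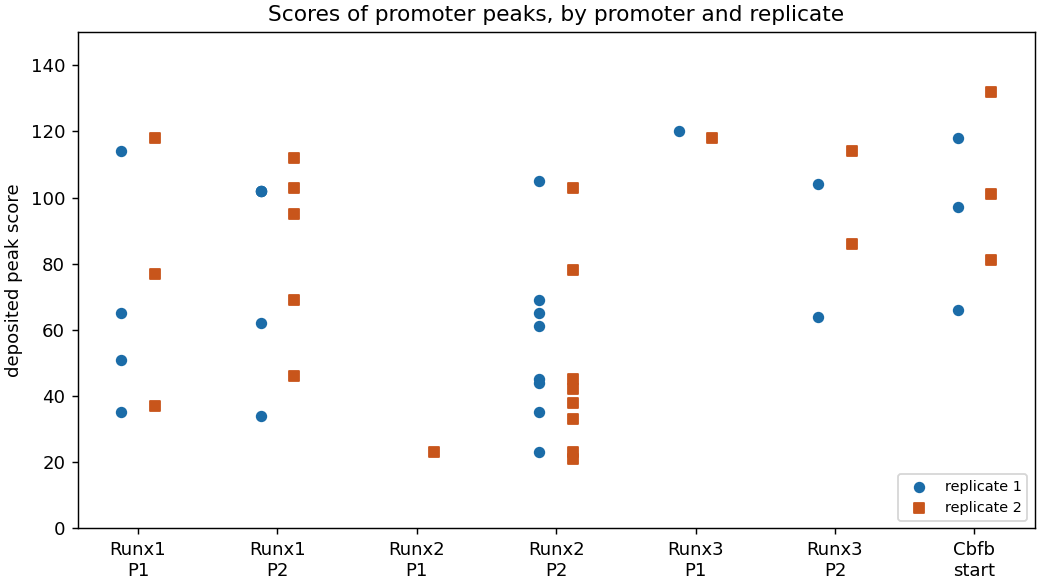
Deposited score (vertical axis, no unit) of each peak within 1000 bp of a coding start site, by promoter; circles are replicate 1 and squares replicate 2, and the 3 strongest replicate 1 peaks of Runx1 P2 share a score of 102. Runx2 P1 holds 1 point, a replicate 2 peak of score 23, while the strongest peak of every other promoter lies at 102 or higher in both replicates.

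The promoters differed in CpG content, which goes with openness in most tissues. Within 500 bp of the start site, the P1 promoters held 17 CpGs (Runx1), 8 (Runx2) and 24 (Runx3). The P2 promoters held 83, 68 and 130, and the Cbfb promoter held 97. Every P2 was thus richer in CpG than any P1. Coding promoters of the same decile of CpG count had a shared peak in 26.5% of cases for Runx1 P1, 12.8% for Runx2 P1 and 50.7% for Runx3 P1. For the P2 promoters the share was 91.4% (Runx1), 91.4% (Runx2) and 93.1% (Runx3). The start site cluster just after P2 of Runx1, counted as a promoter of its own, held 41 CpGs, and the share was 80.6%. An open promoter was therefore the rarer state among promoters with the CpG count of Runx1 P1, and a closed one the common state among those with the count of Runx2 P1.

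In 3133 coding genes the most upstream promoter lay at least 10 kb before the next one, and 15.4% of these had a shared peak at both, like Runx1 and Runx3. The pattern of Runx2, with a shared peak at the second of them alone, was seen in 7.25%. The annotated start sites of other genes include minor ones, so these shares describe the annotation as well as the tissue.

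Distal peaks were many at Runx1 and Runx3, fewer at Runx2 and scarce at Cbfb. At Runx1 replicate 1 held 67 distal peaks and replicate 2 held 58 (62.5 ± 6.36, SD, n = 2), of which 45 were shared. Runx3 had 47 and 40 (43.5 ± 4.95, SD, n = 2), with 32 shared. Shared peaks are counted in replicate 1, and some overlap the same replicate 2 peak. At Runx3 this held for those 58.519 and 58.699 kb from P1, and for those at 45.379 and 45.439 kb. Runx2 had 18 and 22 (20 ± 2.83, SD, n = 2), with 14 shared. Cbfb had 2 and 3 (2.5 ± 0.71, SD, n = 2), with 2 shared. The order Runx1, Runx3, Runx2, Cbfb was the same in each replicate, and the ranges of the genes did not overlap. Counting each gene itself, 0.0778% of coding genes had as many distal shared peaks as Runx1, 0.311% as many as Runx3, 4.37% as many as Runx2 and 48.5% as many as Cbfb, and the median coding gene had 1.

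A gene far from its neighbours can gather more peaks, so the counts were also set against the territory, which is the sequence nearer to the gene's start sites than to any other coding start site within 100 kb. The territory spanned 329 kb for Runx1, 237 kb for Runx2, 187 kb for Runx3 and 46.8 kb for Cbfb. Per 100 kb of territory, Runx3 had 17.1 distal shared peaks, Runx1 13.7, Runx2 5.92 and Cbfb 4.27, beside 4.30 over all coding genes together. Runx3 thus came before Runx1 by density and after it by count. By density 6.77% of coding genes reached the value of Runx3, 10.8% that of Runx1, 32.5% that of Runx2 and 40.9% that of Cbfb.

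**Figure D2:**
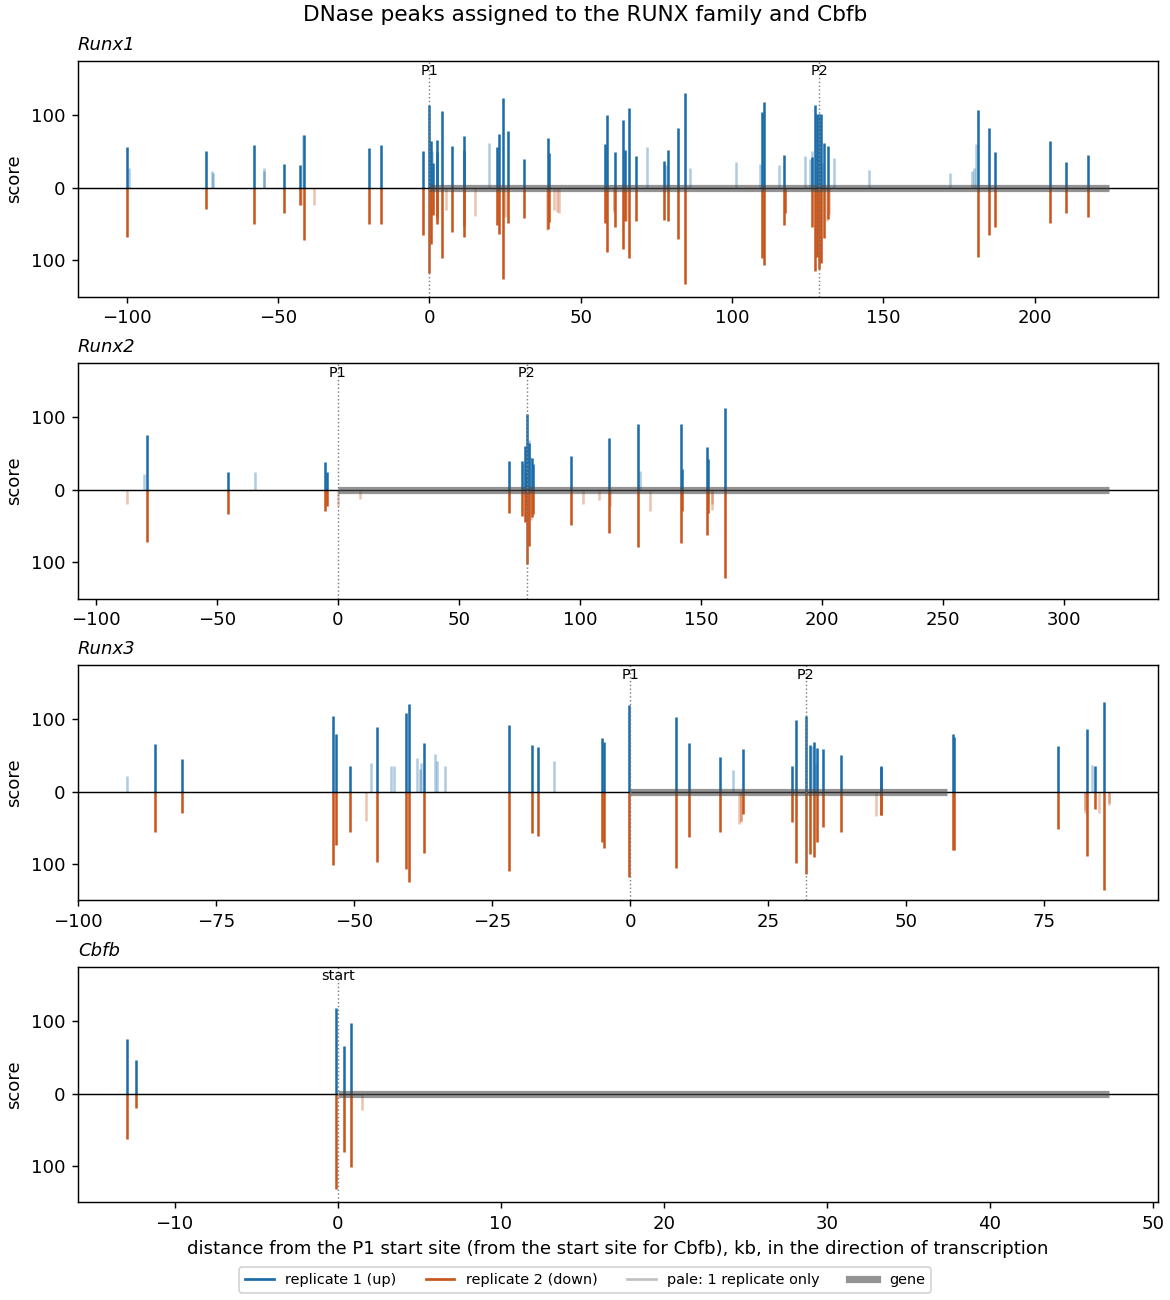
Peaks of each gene by distance from the P1 start site in kb (from the single start site for Cbfb), with the score of replicate 1 drawn upwards and that of replicate 2 downwards; pale lines are peaks of 1 replicate only, the grey bar is the gene and dotted lines are promoters. The Runx1 intron between P1 and P2 holds 29 distal shared peaks, and Runx2 P1 has no line in replicate 1.

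The distal peaks were found again in the other replicate about as often as peaks elsewhere. For Runx1, 67.2% of the replicate 1 peaks and 77.6% of the replicate 2 peaks were shared. The values were 68.1% and 75.0% for Runx3 and 77.8% and 63.6% for Runx2. Over all assigned distal peaks, 67.5% of those of replicate 1 and 74% of those of replicate 2 were shared. Runx1 had 22 distal peaks in replicate 1 only and 13 in replicate 2 only, Runx3 had 15 and 10, Runx2 had 4 and 8, and Cbfb had 0 and 1. These were the weaker ones: at Runx1 their median scores were 32 and 34, while the shared peaks had medians of 58 and 52. The highest score of an unshared distal peak at any of the 4 genes was 73, at Runx1, 41.7 kb upstream of P1.

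The rule's limits each had peaks close by. At Runx1 a replicate 2 peak 0.984 kb from the start site cluster after P2 fell just inside the promoter window. The peak of replicate 1 that overlaps it, 1.06 kb away, fell just outside and counted as distal. The farthest Runx1 peak counted lay 99.962 kb upstream of P1 (scores 57 and 67), and the next one, 100.522 kb upstream (40 and 35), was left out.

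Within Runx1 the long intron between P1 and P2 held most of the distal peaks. It had 39 in replicate 1, 40 in replicate 2 and 29 shared. That is 2.25 shared peaks per 10 kb, against 0.73 per 10 kb in the 95.9 kb from P2 to the gene's end, which held 13 and 7 with 7 shared. The difference in density was larger than the spread between the replicates, at 3.03 and 3.11 per 10 kb in the intron against 1.36 and 0.73 after P2. Another 9 shared peaks lay upstream of P1. None was assigned beyond the gene's end, where Clic6, a chloride channel family gene, is the next coding gene.

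Within Runx3 the spread was more even. There were 14 shared peaks upstream of P1, 6 between P1 and P2, 6 from P2 to the gene's end and 6 beyond it. The 2 stretches of the gene had 1.88 and 2.35 shared peaks per 10 kb. The replicates had 2.20 and 2.83 per 10 kb between the promoters and 3.14 and 2.35 after P2, so the 2 stretches overlapped in their replicate values. Of the 32 peaks, 20 were intergenic, 11 intronic and 1 exonic, whereas 36 of the 45 at Runx1 were in its own introns.

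Within Runx2 few peaks of the intron between P1 and P2 were assigned to the gene, with 3 distal peaks in each replicate and 2 shared. Both shared ones lay just before P2, at 70.8 and 76.3 kb. This intron also holds the start sites of Supt3, a gene of a transcription coactivator complex on the other strand, and 2 further shared peaks there were nearer to Supt3. After P2 the gene held 8 shared peaks. The 4 shared peaks upstream of Runx2 P1 all lay in introns of Supt3. The gene runs on past the 100 kb limit, and 8 more shared peaks in its body lay beyond it. The 6 of these within 200 kb of a Runx2 start site had scores of at most 45 and 36. With all 16, the stretch after P2 had 0.66 shared peaks per 10 kb, below each Runx1 and Runx3 stretch.

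**Figure D3:**
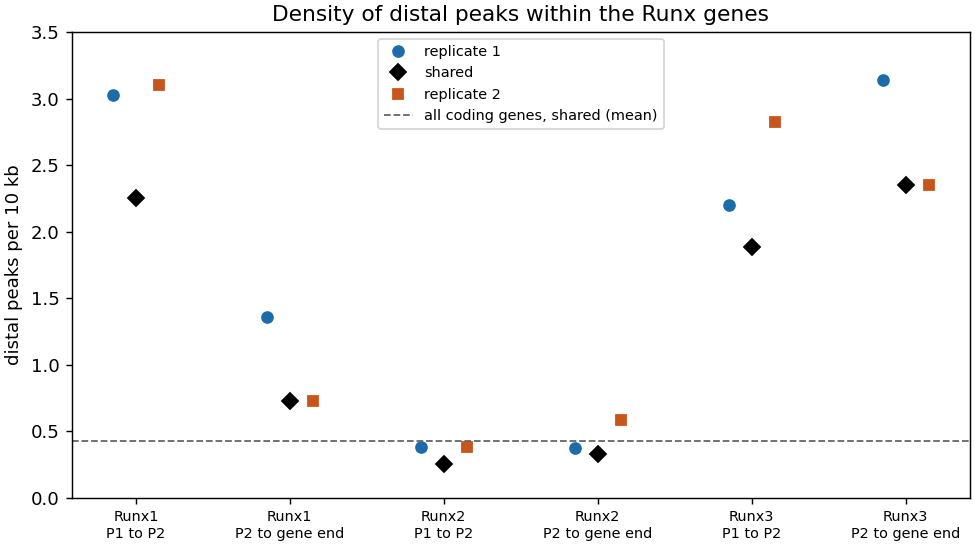
Distal peaks per 10 kb (vertical axis, assigned within 100 kb) in the stretch from P1 to P2 and from P2 to the gene's end; circles are replicate 1, squares replicate 2 and diamonds shared peaks, and the dashed line is the mean of 0.43 shared peaks per 10 kb over the territories of all coding genes. The Runx1 intron and both Runx3 stretches lie above 1.8 for shared peaks, and shared peaks of both Runx2 stretches lie below the dashed line. With the 8 shared peaks beyond 100 kb, which are not drawn, the Runx2 stretch after P2 would stand at 0.66, above that line. From P1 to P2 of Runx2, 2 shared peaks nearer to Supt3 are not drawn either, though the full length of that stretch is used.

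The strongest distal peak of Runx1 lay 84.6 kb into the gene, 44.2 kb before P2, with scores of 131 and 133. Its printed sequence held 2 E-boxes. The next, 24.4 kb from P1, scored 124 and 125. It held a RUNX word on the other strand at base 100, a GATA word at base 120 and a TCF/LEF word. As background, the first Runx1 intron is known for a blood stem cell enhancer, eR1, at about this distance. The peak lay 23.86 kb from the P1 start codon and was matched to eR1 by distance alone. The remaining Runx1 peaks of the strongest 5 lay 127.3 kb (scores 114 and 114), 110.5 kb (119 and 107) and 65.8 kb (110 and 96) from P1. All 5 were in the intron between P1 and P2. The one at 127.3 kb held a CTCF word and lay only 1.483 kb before P2, outside the 1000 bp promoter window. It shared a hotspot with a P2 promoter peak in both replicates, of 1454 bp in replicate 1 and 3265 bp in replicate 2.

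The strongest distal peak of Runx2 lay 160.1 kb from P1 and 81.9 kb after P2, with scores of 113 and 121. It held 2 ETS words on opposite strands 1 base apart, a GATA word and a TCF/LEF word. The next lay at 124.2 kb (scores 91 and 79) and held a RUNX and an ETS word. The others lay at 141.7 kb (91 and 73), at -79.0 kb in a Supt3 intron (75 and 72) and at 112.1 kb (72 and 59). The first was above the other 4 in both replicates.

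The strongest distal peak of Runx3 lay beyond the gene's end, 85.7 kb from P1, with scores of 124 and 135. It held 3 ETS words, of which 2 overlap, and a GATA word 2 bases before them. A pair of upstream peaks followed, within 1 hotspot of 1059 bp in replicate 1 and of 1171 bp in replicate 2. The first of the pair, at -40.1 kb, scored 121 and 125, and the second, at -40.6 kb, scored 108 and 107 and held a RUNX word. A peak at 8.34 kb in the P1 intron scored 103 and 105, and one at -53.7 kb, with a CTCF word and an E-box, scored 105 and 101. The peak at 85.7 kb lay between Runx3 and its neighbour Clic4, and assignment to the nearest start site does not show which gene it acts on.

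Cbfb had 2 distal shared peaks, both upstream. The first, at -12.9 kb, scored 76 and 63 and held no word of the 6 families. The second, at -12.4 kb, scored 46 and 20 and held an ETS and a CTCF word. Within the gene no distal shared peak was assigned to Cbfb, but 1 near the gene's end, 43.6 kb after the start site, was nearer to D230025D16Rik and scored 25 and 20. A replicate 2 peak 1.497 kb after the start site scored 22. The peaks at the Cbfb promoter had higher scores than these distal ones in both replicates, except that the peak at -12.9 kb scored 76 in replicate 1, above the weakest promoter peak at 66.

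Peaks in the top 10% of both lists by score were 4 of 45 at Runx1, 4 of 32 at Runx3, 1 of 14 at Runx2 and 0 of 2 at Cbfb, against 4.21% of all distal shared peaks. The median score of the distal shared peaks was 58 and 52 at Runx1, 67 and 69.5 at Runx3, 44 and 42.5 at Runx2 and 61 and 41.5 over the 2 peaks of Cbfb, beside 56 and 47 over all 78719 distal shared peaks. By these medians Runx3 ranked highest of the 3 Runx genes and Runx2 lowest. Across the 93 distal shared peaks of the 4 genes, scores of the replicates had a Spearman correlation of 0.90, beside 0.89 over all distal shared peaks. These are correlations across peaks of the same pair of libraries, given as a description. The largest difference between replicates was 31 points, at Runx1. Over all distal shared peaks the median of replicate 2 minus replicate 1 was -7 points. Differences in points are not corrected for this shift between the lists.

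**Figure D4:**
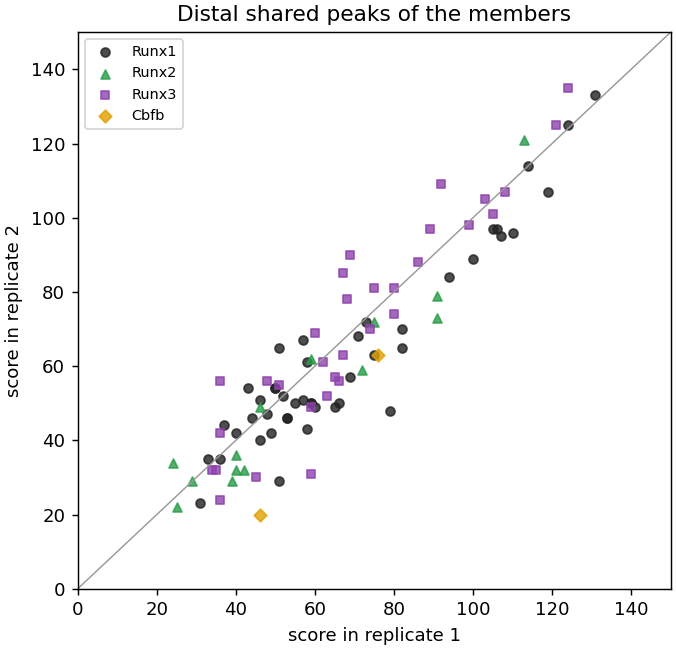
Score of each of the 93 distal shared peaks in replicate 1 (horizontal axis) and replicate 2 (vertical axis), by gene, with the line of equal scores. Runx3 peaks (squares) lie on both sides of the line, 16 on each, and 30 of the 45 Runx1 peaks (circles), or 66.7%, score higher in replicate 1, beside 74.3% of all distal shared peaks.

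RUNX words were about as common in the distal shared peaks of the family as in others. They were found in 14 of 45 at Runx1, 8 of 32 at Runx3, 3 of 14 at Runx2 and 0 of 2 at Cbfb, or 26.9% of the 93, beside 23.9% of all distal shared peaks. In windows of 150 bp that lay 1000 bp to each side and overlapped no peak, 15.4% held a RUNX word. With each replicate's own distal peaks the share was 23.9% in replicate 1 and 26.0% in replicate 2.

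ETS words, bound by ETS1 and PU.1 among others, were in 41 of the 93 (44.1%), beside 35.3% of all distal shared peaks. Runx3 had the highest share, with 18 of 32, and Runx1 had 16 of 45. E-boxes were in 31 of the 93, beside 34% of all. TCF/LEF words, the sites of TCF1 in thymocytes, were in 15, beside 13.5% of all. GATA words were in 14 (15.1%), beside 10.3% of all, and 5 of these were among the 14 peaks of Runx2. CTCF words, a family added after the values had been seen, were in 8 of the 93 (8.60%), beside 20.2% of all. CTCF is known for its place at loop anchors and boundaries. By gene its words were in 3 of 45 peaks at Runx1, 1 of 14 at Runx2, 3 of 32 at Runx3 and 1 of 2 at Cbfb. With so few peaks a gene, a share moves by several points with a single peak.

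**Figure D5:**
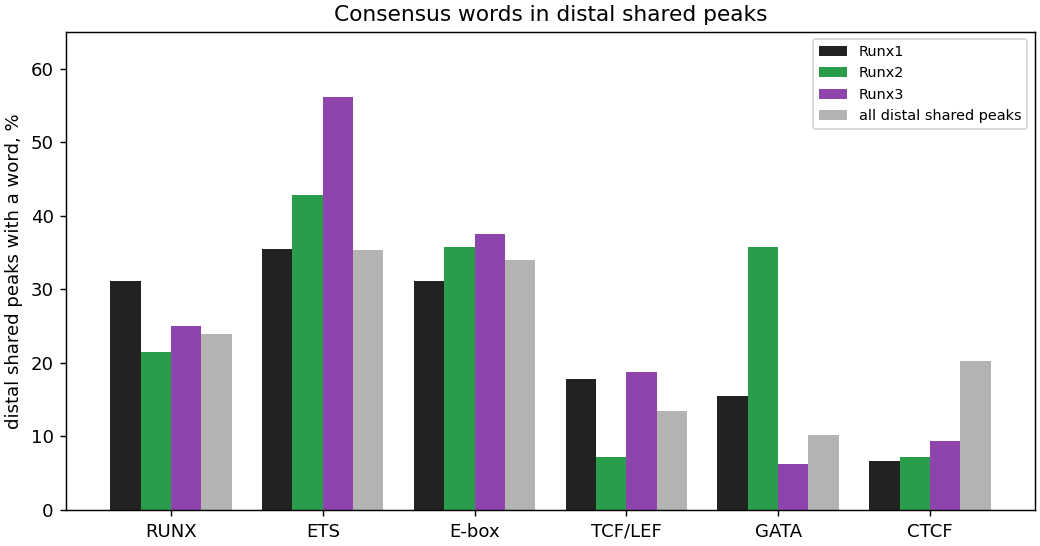
Share of distal shared peaks (vertical axis, percent) that hold a word of each family within 150 bp, for Runx1 (45 peaks), Runx2 (14), Runx3 (32) and all 78719 distal shared peaks; Cbfb, with 2 peaks, is not drawn. ETS words stand highest at Runx3, GATA words at Runx2, and CTCF words are below the grey bar at all 3 genes.

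Hotspots followed the same order as peaks. Assigned by the same rule, Runx1 had 66 in replicate 1 and 54 in replicate 2, Runx3 had 46 and 37, Runx2 had 24 and 29 and Cbfb had 3 and 3. The widest of Runx1 was 1581 bp at P1 in replicate 1 and 3265 bp around P2 in replicate 2. The widest of Runx2 was at P2 in both, 1380 and 1406 bp. At Runx3 the widest ones lay beyond the gene's end, at 85.7 kb (1276 bp) in replicate 1 and at 83.4 kb (1872 bp) in replicate 2. Of the Runx1 hotspots 33.3% and 40.7% were at the cap of the −log10 q, beside 45.9% and 43.5% of all hotspots.

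The genes next to each Runx gene had fewer distal shared peaks than it, and smaller territories as well. Territories spanned 119 kb for Clic6, 121 kb for Setd4, 141 kb for Clic5 and 121 kb for Cdc5l. They spanned 43.5 kb for Supt3, 98.5 kb for Syf2 and 87.4 kb for Clic4. The counts below are not set against these lengths. Clic6 and Setd4, beside Runx1, had 8 and 10 distal shared peaks. Clic5 and Cdc5l, beside Runx2, had 8 and 6, and Supt3 had 2. Syf2 and Clic4, beside Runx3, had 12 each, and Ces4a and D230025D16Rik, beside Cbfb, had 2 each. A gene of the Clic family thus adjoins each of the 3 Runx genes. Of these 9 neighbours, Clic6 and Ces4a lacked a promoter open in both replicates.

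The coding genes most like each member were found by distance over 4 standardised values: distal shared peaks, territory length, and the ranks of the strongest promoter and strongest distal peak, among 10533 genes. For Runx1 they were Maml3 (48 distal shared peaks), Cux1 (43) and Itpr2 (44). For Runx2 they were Aff3 (14), Spata13 (15) and Nhsl1 (13). For Runx3 they were Zmiz1 (30), Trak1 (34) and Klhl25 (34). For Cbfb they were Rad54b, Ddx47 and Zfp318, with 2 each.

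Genes that work with RUNX proteins were looked at by the same rule, in lists chosen with earlier results of these data known. Of 15 listed cofactors, 13 were open at a promoter in both replicates, beside 61.7% of all coding genes, and the exceptions were Runx1t1, the ETO corepressor gene, and Tle2, a Groucho corepressor gene. Their median was 7 distal shared peaks, beside 1 over all coding genes. Ets1, whose protein binds DNA together with RUNX1, had 33, the ETO family gene Cbfa2t3 had 26 and the Groucho gene Tle3 had 24. Of 18 textbook RUNX targets, 14 were open at a promoter in both, beside the same 61.7%, with a median of 4.5 distal shared peaks. The thymocyte targets Tcf7 (36), Bcl11b (32) and Cd8a (12) led the list. The exceptions were the macrophage receptor gene Csf1r and the skeletal genes Col10a1, Sp7 and Bglap.

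The tissue label was set beside marker genes. All 6 thymocyte markers (Cd3e, Cd4, Cd8a, Rag1, Ptcra, Lck) were open at a promoter in both replicates. Among other cell types, 0 of 4 thymic epithelial, 2 of 4 B cell, 3 of 4 myeloid and 2 of 4 endothelial markers were open in this way. So were 2 of 4 erythroid, 3 of 4 mesenchymal and 2 of 3 NK and innate lymphoid markers. Over all coding genes the share was 61.7%, and lists this short do not test the label. Whole thymus holds all these cells, and which of them carry each peak was not tested. In bulk tissue fewer open cells and weaker opening per cell cannot be told apart.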

How the data were processed

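DNase-seq of newborn thymus was measured in 2 replicates of 1 group, and the labels give both the same donor, so the SD over n = 2 is a spread between samples, and part of it may be technical. Per replicate, the authors deposited peaks 150 bp wide with a score, and hotspots with a −log10 of a q-value capped at 100, called on that replicate's alignments to mm10, per the text with the files. Not given in the sources used here are the aligner, callers, thresholds, read totals and meaning of the score. Depth is therefore unknown, and no interval could be given.

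Peaks were placed on GENCODE M21 (54361 coding start sites) and on the GRCm38 sequence of NCBI RefSeq, with python 3.11.15, numpy 2.4.6 and pandas 2.3.3, and figures with matplotlib 3.10.9. Rank percentiles are within each list. Start sites of a gene within 1000 bp were joined. Words were searched on both strands. The functions were tested on simulated data. Named genes are the 4 members, their adjoining coding genes, the listed cofactors, targets and markers, and the 3 most like genes of each member. The members and lists were chosen with earlier results of these data known. No comparison between groups exists, and no test was made. Alternatives covered the overlap, the stronger 50% of peaks, hotspots for peaks, the promoter window, the start sites, the distance limit and each replicate alone.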

Additional observations from a re-analysis of the deposited data

How the results depend on the processing

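Of 85 alternative values for 13 results, 64 were classed as the same and 21 as moved. A count was classed as the same within a factor of 1.5 of the value given. The class is therefore wide: Runx1 counts of 32, 58 and 67 fell in it, beside 45. Percentages were classed more narrowly: beside a RUNX word share of 26.9%, 26.0% was the same and 24.7% moved. The flanking windows, which hold other sequence than the peaks, are among the 85 values. The cause was not tested beyond the construction of each setting. No paired analysis was possible because there is 1 group. The P1 counts were recomputed as alternatives chosen after seeing the data. Depth is unknown, and assignment by distance limits what a distal count says of a gene.

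A limit of 50 kb gave 28 distal shared peaks at Runx1 and 8 at Runx2, and a limit of 200 kb gave 23 at Runx2. Start sites of all biotypes left 32 at Runx1, 4 at Runx2, 14 at Runx3 and 0 at Cbfb. This setting adds the start sites of noncoding genes and of noncoding transcripts of coding genes, the members included. A peak can thus pass to another gene or become a promoter peak. The stronger 50% of peaks left 6 distal peaks at Runx2, 1 at Cbfb and 3 promoter peaks at Runx2. A promoter window of 2500 bp gave 13 promoter peaks at Runx1, of which 6 at P1, and 6 at Runx3. Hotspots for peaks gave 1 at the Cbfb promoter. With 1 replicate left out, distal peaks of Runx2 numbered 18 to 22, and Runx2 P1 peaks 0 to 1. The mean share of the members' distal peaks found in both replicates was 71.7%, 64.7% at 50% reciprocal overlap and 85.7% among the stronger 50%. The RUNX word share of 26.9% was 24.7% with TGTGGT only, 29.9% in the stronger 50%, 15.4% in flanking windows and 23.9 to 26.0% with 1 replicate left out.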

Other observations

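Upstream of Runx1, 13 further shared peaks lay between 100 and 200 kb from P1, where the next coding start site, of Setd4, is 759 kb from that of Runx1. The strongest of them lay 101.742 kb upstream, with scores of 88 and 99. Beyond the same limit upstream of Runx2 there were 3 shared peaks, with scores of at most 42 and 23.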
